A study of Mus musculus with 4 samples.

Results

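The genes described are 35 nuclear receptors outside the retinoic acid and retinoid X receptors, listed by name and not every such receptor of the mouse. Their members were taken as all probe sets whose only gene symbol in the array's annotation is one of the 35, which gave 96 probe sets of 33 genes among the 45037 probe sets of mouse sequence on the array. Nr1h2, the liver X receptor beta, and Nr2e3, a photoreceptor-specific receptor, had no such probe set and are not described further. The samples were testes of 129 mice taken at 2 dpp (days post partum) and kept for 24 h in organ culture on agar, the medium holding fetal bovine serum. The 2 control arrays hold testes with the vehicle DMSO alone, and the 2 treated arrays testes with WIN 18,446 at 1 µM in that vehicle. WIN 18,446 inhibits the retinaldehyde dehydrogenases, which make retinoic acid. RNA was measured on Affymetrix Mouse Genome 430 2.0 arrays, and the whole tissue, a mixture of germ, Sertoli, interstitial and vascular cells, went onto each. Whether the samples of a group are of different animals or cultures is not in the labels, so p-values reflect the spread between 2 samples a group, part or all of which may be technical.

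Nuclear receptors are transcription factors that bind DNA through a pair of zinc fingers and, in many cases, change activity when a small lipophilic ligand such as a steroid, thyroid hormone, fatty acid or oxysterol enters their ligand pocket. Many bind as partners of a retinoid X receptor, while the orphan receptors have no known natural ligand or act without one. In the testis, androgen, estrogen, thyroid hormone and glucocorticoid signals reach Sertoli, Leydig and peritubular cells through receptors of this family, and Nr6a1, the germ cell nuclear factor, is known for its expression in germ cells.

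Of the 33 genes on the array, 17 were expressed, 8 lay at the background and 8 stood between. Values are log2 levels as deposited, normalized between arrays by the authors. A gene was counted as expressed where the 4-array mean of a probe set was 5 or more, or both arrays of a group at 5 or above. It was counted at the background where no array of any of its probe sets read above 2.22, the highest reading of the control probe sets for Bacillus subtilis genes, to which mouse RNA has no match. The expressed genes were Nr1d1, Nr1d2, Rora, Ppard, Nr2c1, Nr2c2, Nr2f1, Nr2f2, Nr2f6, Nr6a1, Nr3c1, Nr3c2, Esr1, Nr4a1, Nr4a2, Nr4a3 and Thra. Those at the background were Nr1h3, Nr1i2, Nr1i3, Pparg, Hnf4a, Esr2, Esrrb and Thrb, and those between were Rorb, Nr1h4, Ppara, Hnf4g, Nr2e1, Pgr, Esrra and Esrrg. A low probe set does not show that its gene is silent, since 14 probe sets of the expressed genes themselves read at or below 2.22 on every array. Nr1d2 is an example, with readings of 11.97 to 12.08 in one probe set and 2.07 to 2.09 in its other.

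**Figure D1:**
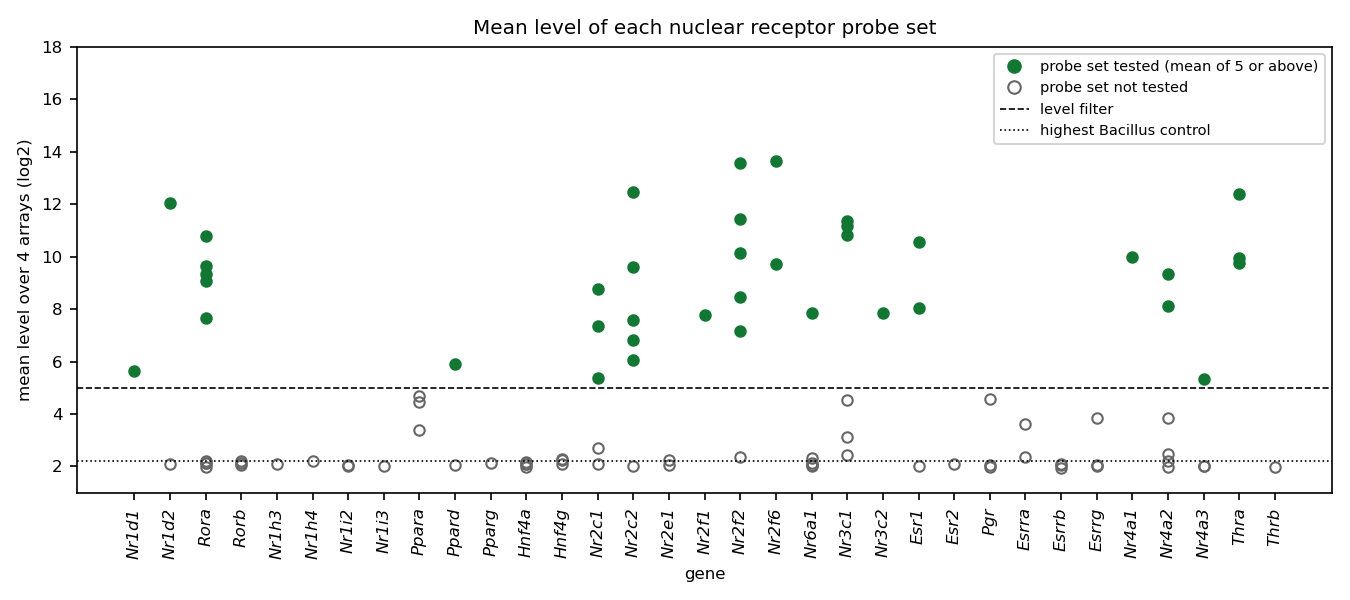
Mean log2 level over the 4 arrays (vertical axis) of each of the 96 probe sets of the 33 genes (horizontal axis), with filled points for the 38 tested probe sets and open points for the others. The dashed line is the level filter of 5 and the dotted line the highest Bacillus control at 2.22; several expressed genes have points both high and at the dotted line.

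The comparison asks which of these receptors differ in transcript level after a day with the inhibitor. Nr4a1 rose and Thra fell, and the other 15 expressed genes were not called, in a limma fit over all 20895 probe sets with a mean of at least 5 (called at a Benjamini-Hochberg adjusted p under 0.05). Of the 38 member probe sets tested, 2 were called (5.26%), against a background of 5.18% of all probe sets tested, so the share of the receptors called was near that of the array. Without control array 1 or control array 2, no call given here stood in limma. Such a fit takes its spread within groups from the treated arrays alone. Counted by gene, each with its probe set of highest mean, 2 of 17 were called, beside 6.4% of 10970 genes. The direction was split, with 1 member probe set higher (2.63%, beside 2.27% of all tested) and 1 lower (2.63%, beside 2.91%). At a limma unadjusted p under 0.05 there were 3 of the 38 member probe sets (7.89%), beside 22% of all tested. The third was one of Nr2c1. None of the 38 reached a 2-fold difference, a size seen in 5.31% of all tested. Groups were free of overlap in 15 of the 38 member probe sets, beside 53.1% of all tested. The median log2 difference, treated minus control, was 0.02 over the 38 and -0.02 over all tested, and the median of its size was 0.165 and 0.175. For the 15 expressed genes not called, the 95% interval of the difference was read in the probe set of highest mean. It lay within 1 log2 unit of 0 for 12, and reached beyond it for Nr2c1, Nr6a1 and Nr3c2. Intervals of other tested probe sets also reached beyond 1 log2 unit for Rora (to 1.64), Nr2f2 (to -1.40), Nr2f6 (to -1.49) and Nr4a2 (to 1.02).

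**Figure D2:**
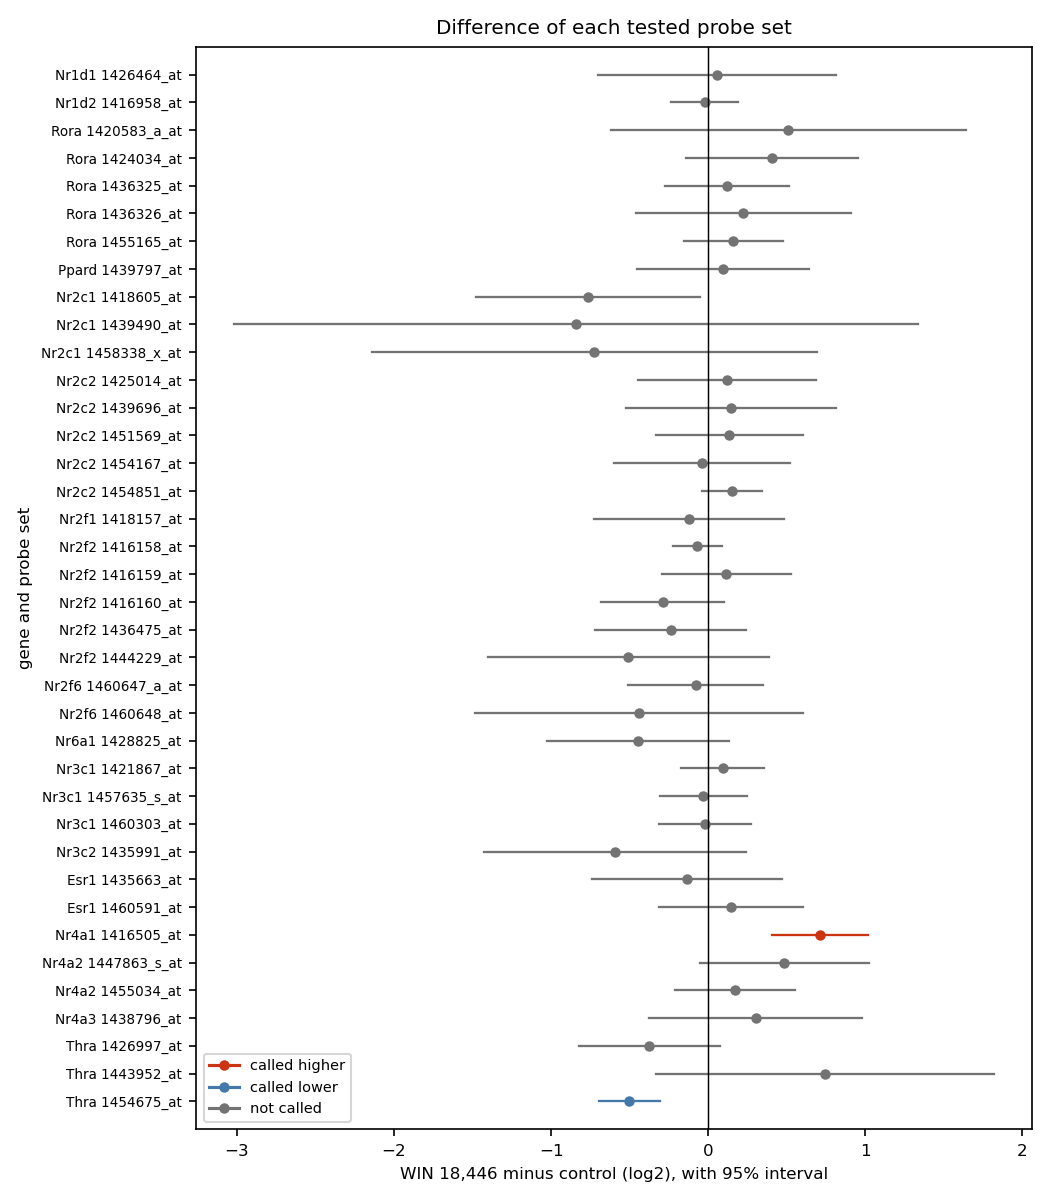
Log2 difference, WIN 18,446 minus control, with its 95% interval from limma (horizontal axis) for each of the 38 tested probe sets (vertical axis, by gene). Nr4a1 at 0.71 and the Thra probe set at -0.50 are coloured as called, and the 4 widest intervals belong to 2 probe sets of Nr2c1 and 1 each of Rora and Thra.

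The Nr4a receptors are orphan receptors whose genes are switched on within minutes by hormones, growth factors and cAMP, and which work without a ligand. Nr4a1 is known in the testis as a factor of Leydig cells that activates steroidogenic genes. The 4 tested steroidogenic genes (Star, Cyp11a1, Hsd3b1 and Cyp17a1) were not called here, with differences from -0.69 to -0.11. Their relation to Nr4a1 was not tested. The Nr4a1 probe set read 9.59 and 9.66 on the control arrays and 10.34 and 10.33 on the treated arrays. Both treated arrays were above both control arrays, and the gap between the groups was wider than that within either. The log2 difference was 0.71 (SE 0.12, 95% interval 0.41 to 1.02, limma adjusted p = 0.0419), a 1.64-fold rise. The call was lost in limma without any 1 of the 4 arrays, with adjusted p from 0.0651 to 0.333, while the difference stayed between 0.68 and 0.75. It was also lost when array medians were set equal (0.67, adjusted p = 0.0521).

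The other members of the family had higher treated means and were not called. The Nr4a2 probe set of highest mean read 9.18 and 9.33 with vehicle and 9.36 and 9.49 with WIN 18,446 (log2 difference 0.17, adjusted p = 0.573). A second Nr4a2 probe set read 7.84 and 7.95, then 8.18 and 8.59 (0.49, adjusted p = 0.267). In both probe sets the groups did not overlap, but the gap between them was smaller than that between the treated arrays. Nr4a3 read 5.38 and 4.96 with vehicle and 5.58 and 5.37 with WIN 18,446, so that control array 1 lay among the treated arrays (0.30, adjusted p = 0.573). Among the probe sets under the level filter, one of Nr4a2 read 3.68, 3.70, 4.42 and 3.61, with only treated array 1 above the others.

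The promoters of the 3 genes are shown because Nr4a1 was the member that rose and because this family is known for induction through cAMP response elements. The arrays measure transcripts and carry no information on binding to these sequences. Each stretch holds the 250 bases before and 50 bases after the annotated start in RefSeq, build GRCm38.p6, written 5′ to 3′ along the gene. Capitals mark TGACG, the core of the cAMP response element TGACGTCA, and CGTCA, the same motif on the other strand; overlapping matches would each be counted.
Nr4a1, chr15:101266596-101266895, plus strand: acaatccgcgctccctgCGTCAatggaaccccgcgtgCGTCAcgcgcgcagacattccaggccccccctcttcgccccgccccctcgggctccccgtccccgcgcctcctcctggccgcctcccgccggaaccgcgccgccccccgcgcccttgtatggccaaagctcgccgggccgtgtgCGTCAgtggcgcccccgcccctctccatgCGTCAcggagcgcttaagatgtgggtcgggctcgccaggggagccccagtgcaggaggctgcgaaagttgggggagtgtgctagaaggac
Nr4a2, chr2:57123954-57124253, minus strand: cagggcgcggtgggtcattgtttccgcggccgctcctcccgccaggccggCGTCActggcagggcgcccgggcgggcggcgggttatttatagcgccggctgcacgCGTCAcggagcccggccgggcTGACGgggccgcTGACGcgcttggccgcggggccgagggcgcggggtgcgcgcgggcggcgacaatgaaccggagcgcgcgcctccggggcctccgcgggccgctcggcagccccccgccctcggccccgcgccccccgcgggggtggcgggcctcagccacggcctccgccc
Nr4a3, chr4:48045055-48045354, plus strand: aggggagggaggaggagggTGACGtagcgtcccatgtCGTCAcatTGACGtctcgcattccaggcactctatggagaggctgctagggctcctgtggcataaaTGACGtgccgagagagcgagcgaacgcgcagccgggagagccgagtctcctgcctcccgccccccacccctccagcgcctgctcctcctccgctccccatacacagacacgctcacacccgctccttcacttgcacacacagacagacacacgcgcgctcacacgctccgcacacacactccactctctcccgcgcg

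Each of the 3 promoters held 4 matches to TGACG on either strand. Of the 32851 promoters of that length in the table, 20.8% held at least 1 and 0.231% at least 4. None of the 3 held the whole palindrome TGACGTCA, which 1.79% of all promoters did. In Nr4a1 the matches began 233, 213, 69 and 40 bases upstream of the start, and all 4 were part of the longer word TGCGTCA. That word was searched after it was seen in this sequence, on both strands, and Nr4a1 was the 1 promoter in the table with 4 copies. Nr4a2 and Nr4a3 held 0 copies of it, and 2.12% of all promoters held at least 1. In Nr4a2 the matches began 200, 144, 123 and 111 bases upstream, and in Nr4a3 231, 213, 205 and 147. A match is a description of the letters and not a bound site.

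Immediate early genes, which are induced by the same signals as the Nr4a family, were read beside it. This list and those below were chosen with earlier results of these data known, so their counts describe and do not test. Of its 13 tested genes 2 rose, 0 fell and 11 were not called, beside 6.4% of 10970 genes called in either direction. At a limma unadjusted p under 0.05 there were 8 of the 13, beside 22% of all probe sets tested. Both shares stand beside the counts of the later lists as well. The 22% is a share of probe sets, while the lists count genes. The median log2 difference was 0.33 against -0.02 over all 10970 genes. Atf3, a stress-induced transcription factor, read 7.97 and 7.94 with vehicle and 9.08 and 9.58 with WIN 18,446 (1.38, adjusted p = 0.0376). Egr2, a zinc finger factor, read 10.14 and 10.27, then 10.94 and 11.21 (0.86, adjusted p = 0.0376). For both genes all treated readings lay above all control readings. Btg2 (1.67, adjusted p = 0.0592), Egr1 (0.29, adjusted p = 0.0755) and Jun (0.37, adjusted p = 0.0967) had positive differences and were not called. Fos, the gene most often used as the marker of this response, read 10.52, 10.56, 10.56 and 11.14, and only treated array 2 stood above the others. Fosb and Fosl1 were at the background on every array. The list mean was 10.53 and 10.66 with vehicle, then 10.91 and 11.15 with WIN 18,446, and its part in the Nr4a1 result was not tested.

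**Figure D3:**
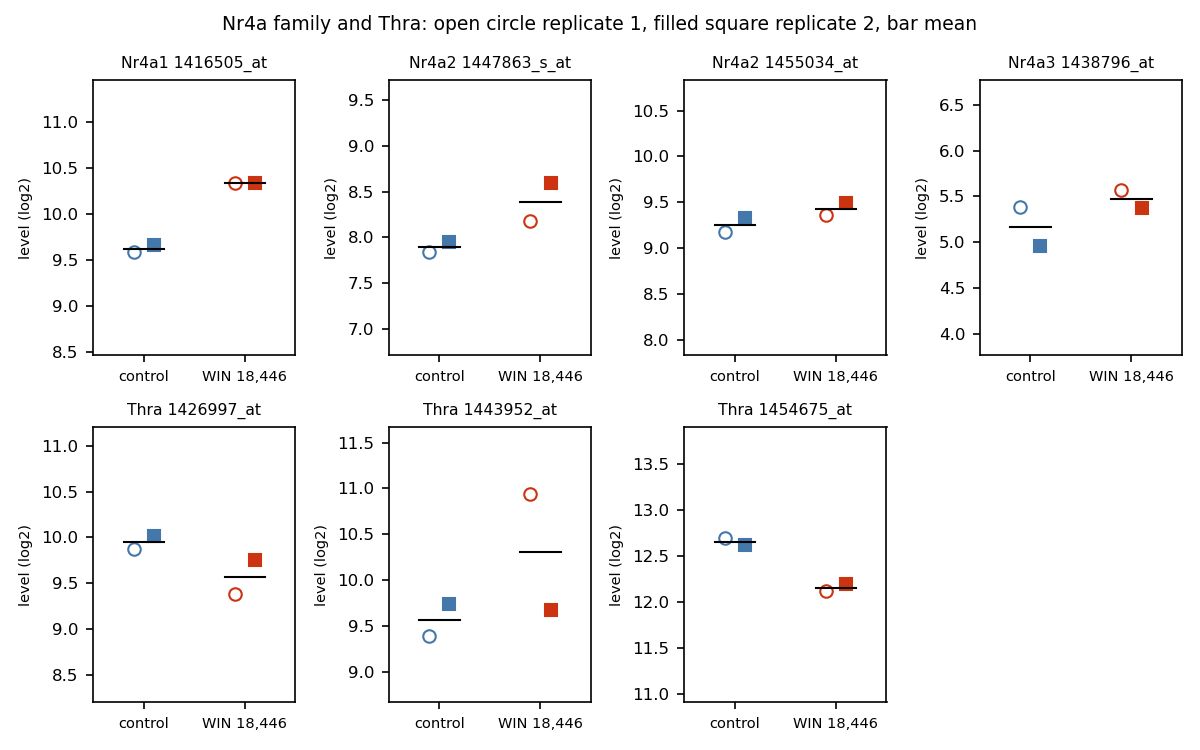
Log2 level on each array (vertical axis, 3 log2 units in every panel) of the tested probe sets of Nr4a1, Nr4a2, Nr4a3 and Thra, for control and WIN 18,446 (horizontal axis); open circles are replicate 1, filled squares replicate 2 and bars group means. The groups are apart in Nr4a1 and in Thra 1454675_at, while Thra 1443952_at is high on treated array 1 alone.

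Thyroid hormone receptors bind DNA mostly with a retinoid X receptor and, without hormone, repress their targets through corepressors. Thra encodes the alpha receptor and a splice form that does not bind the hormone, and thyroid hormone acting on neonatal Sertoli cells is known to limit their proliferation. The Thra probe set of highest mean, 1454675_at, read 12.69 and 12.62 on the control arrays and 12.11 and 12.19 on the treated arrays. Both treated readings lay below both control readings by several times the spread within a group. The log2 difference was -0.50 (SE 0.08, 95% interval -0.70 to -0.31, limma adjusted p = 0.0333), which is 1.42-fold lower. In a whole tissue, fewer cells of a type and less RNA per cell cannot be told apart. The call was lost without control array 1 (adjusted p = 0.332), control array 2 (0.224) or treated array 1 (0.0638), and held without treated array 2 (0.0394), with differences from -0.54 to -0.46.

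The 3 Thra probe sets did not move together. A second, 1426997_at, read 9.87 and 10.02 with vehicle and 9.38 and 9.76 with WIN 18,446 (-0.37, adjusted p = 0.302), lower on both treated arrays but with a wide gap between them. The third, 1443952_at, read 9.39 and 9.74, then 10.94 and 9.68 (0.74, adjusted p = 0.386). Its positive difference comes from treated array 1, since treated array 2 lay between the control arrays. The annotation used here does not say which transcript form each probe set reads. Thra overlaps Nr1d1 on chromosome 11 in the RefSeq gene table, and is known to be transcribed from the opposite strand. Nr1d1 read 5.48 and 5.76 with vehicle and 5.97 and 5.38 with WIN 18,446, so its groups overlapped (0.06, adjusted p = 0.94). Thrb, the beta receptor, read at most 2.00 on any array.

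Sertoli cell markers differed in the same samples as Thra. Of 9 tested, 4 fell (Cldn11, Sox9, Dhh and Wt1), 0 rose and 5 were not called, beside 6.4% of all genes called in either direction. At a limma unadjusted p under 0.05 there were 8 of the 9. Of those not called, Gata1 (-1.45, adjusted p = 0.165), Aard (-0.43, adjusted p = 0.066) and Fshr (-0.34, adjusted p = 0.168) had negative differences. Amh (1.25, adjusted p = 0.0575) and Clu (0.06, adjusted p = 0.464) had positive ones. The mean level of the list was 12.42 and 12.45 with vehicle, then 12.07 and 11.84 with WIN 18,446, its summed level was 16.72 to 16.78 and 16.40 to 16.49 on the log2 scale, and no marker was at the background. The part of these cells in the Thra result was not tested. Among 7 tested genes of thyroid hormone transport, deiodination and response 0 were called (2 at an unadjusted p under 0.05), and their median difference was 0.01. Hr, a corepressor that thyroid hormone induces in brain, had a log2 difference of 0.52 (adjusted p = 0.199) and Thrap3, a receptor-associated protein, one of 0.29 (adjusted p = 0.203). Klf9, which the hormone also induces, differed by -0.12 (adjusted p = 0.424). Dio2, the deiodinase that activates the hormone, differed by -0.28 (adjusted p = 0.768), and Dio1 was at the background.

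The receptors of the circadian loop showed no call. Rev-erb alpha (Nr1d1) and Rev-erb beta (Nr1d2) are heme-binding repressors, and RORs are activators that compete with them for the same response elements in clock genes. Nr1d2 read 12.08 and 12.02 with vehicle and 11.97 and 12.08 with WIN 18,446, with overlapping groups (-0.02, 95% interval -0.24 to 0.19, adjusted p = 0.907). Rora was read by 5 tested probe sets, whose differences ran from 0.12 to 0.51 and were all positive and uncalled. That of highest mean read 10.62 and 10.84, then 10.94 and 10.84 (0.16, 95% interval -0.16 to 0.48, adjusted p = 0.522). In each of the 5, control array 1 was the lowest of the 4 arrays, by over 1 log2 unit from control array 2 in the probe set 1420583_a_at (6.80 against 8.03). Rorb was near the background, with a highest reading of 2.23.

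Of the clock genes read beside them most were not called. Of 13 tested, Tef rose, Dbp fell and 11 were not called, with a median log2 difference of -0.01. At a limma unadjusted p under 0.05 there were 4 of the 13. Dbp, a clock output factor that is driven by the Clock and Bmal1 pair, read 12.36 and 12.43 with vehicle and 11.53 and 11.72 with WIN 18,446 (-0.77, adjusted p = 0.0243). Tef, a factor of the same PAR bZIP family, read 12.31 and 12.42, then 12.77 and 12.84 (0.44, adjusted p = 0.0455). In both genes the groups were apart, in opposite directions. The Tef call was lost when array medians were set equal (adjusted p = 0.0857) and without any 1 of the 4 arrays (adjusted p from 0.0694 to 0.35). Bhlhe40, a clock repressor, differed by 0.52 (adjusted p = 0.0574) and Per3, a period gene, by 0.47 (adjusted p = 0.0821), without being called. Cry2, a cryptochrome repressor, differed by -0.26 (adjusted p = 0.275). Arntl, which encodes Bmal1 and is repressed by the Rev-erb receptors, read 10.08, 9.92, 9.94 and 9.93, with a difference of -0.06 (adjusted p = 0.826).

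The lipid and xenobiotic sensors were mostly at or near the background. Ppard, the broadly expressed fatty acid receptor, was the 1 expressed gene of this group and read 5.80 and 5.92 with vehicle and 5.97 and 5.93 with WIN 18,446 (0.09, 95% interval -0.46 to 0.64, adjusted p = 0.847). The groups lay next to each other without overlap, at a level close to the filter. Ppara, which drives fatty acid oxidation in liver, had 3 probe sets below the filter and was not tested. Of these 1439675_at read 4.94 and 4.63 with vehicle and 3.91 and 4.31 with WIN 18,446, lower on both treated arrays. The probe set 1449051_at read 3.45 and 3.54, then 3.20 and 3.41, also lower on both treated arrays. The third, 1457721_at, read 4.67, 4.69, 4.50 and 4.93, with overlapping groups. Pparg, the adipocyte receptor, Nr1h3, the liver X receptor alpha, Nr1i2 and Nr1i3, the xenobiotic sensors of liver, and Hnf4a, a factor of liver and gut, did not exceed 2.20 on any array. Nr1h4, the bile acid receptor, and Hnf4g reached 2.24 and 2.34 at most.

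Genes that PPARs regulate in fat metabolism gave 1 call in each direction. Of 15 tested, Lpl rose, Cidea fell and 13 were not called, with a median difference of -0.05. At a limma unadjusted p under 0.05 there were 6 of the 15. Lpl, the lipoprotein lipase, read 12.46 and 12.55 with vehicle and 13.47 and 13.39 with WIN 18,446, with the groups far apart (0.92, adjusted p = 0.0109). Cidea, a lipid droplet protein, read 11.94 and 11.86, then 2.64 and 4.75 (-8.20, adjusted p = 0.0118). Both treated readings lay under the level filter of 5, which Cidea passed through the control arrays, and that of treated array 1 was close to the background. The size of its fall is therefore a rough value and not an exact fold. Fabp3, a fatty acid carrier of muscle, was lower on both treated arrays (-0.19, adjusted p = 0.0858) and not called. Fabp4, a fatty acid carrier of adipocytes and vessels, read 6.13 and 8.87 with vehicle and 10.11 and 10.42 with WIN 18,446, with a wide gap between the control arrays, and was not called (2.77, adjusted p = 0.153). The enzymes of fatty acid oxidation were not called. Of these Acaa2 (-0.25, unadjusted p = 0.0107, adjusted p = 0.1) and Hadhb (0.20, unadjusted p = 0.0413, adjusted p = 0.206) had the smallest p, in opposite directions. Cpt1a, the carnitine transferase of the oxidation pathway, differed by -0.16 (adjusted p = 0.453). Among 11 tested genes induced by liver X receptors Lpl, which stands on both lists, was the 1 call, 10 were not called and the median was -0.02. At a limma unadjusted p under 0.05 there were 4 of the 11. The sterol exporters Abca1 (-0.07, adjusted p = 0.659) and Abcg1 (0.02, adjusted p = 0.927) were among those not called, as were those of smallest p, the fatty acid synthase Fasn (-0.22, adjusted p = 0.0802), the ubiquitin ligase Mylip (0.97, adjusted p = 0.089) and the phospholipid transfer protein Pltp (0.40, adjusted p = 0.147). Without treated array 2 Pltp was called as well.

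Among the COUP transcription factors and testicular receptors, Nr2c1 and Nr2f6 had probe sets with over 1 log2 unit between the treated arrays, and none was called. Nr2c1 (TR2) and Nr2c2 (TR4) bind direct repeats of the hormone response core site and are named for their cloning from testis. The Nr2c1 probe set of highest mean read 9.20 and 9.09 with vehicle and 8.01 and 8.76 with WIN 18,446. Both treated arrays were below both controls, and treated array 1 was the lower by far (-0.77, 95% interval -1.48 to -0.06, unadjusted p = 0.0392, limma adjusted p = 0.201). The probe set 1439490_at read 7.56 and 7.97, then 5.59 and 8.25 (-0.84, adjusted p = 0.626), and 1458338_x_at read 5.82 and 5.62, then 4.18 and 5.81 (-0.72, adjusted p = 0.517). In these 2 treated array 2 lay above both control arrays or level with the higher one, so the negative difference came from treated array 1 alone. Another Nr2c1 probe set, under the filter, read 2.85, 2.89, 2.08 and 3.03 and had the same shape.

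Nr2c2 did not share that shape. Its probe set of highest mean read 12.33 and 12.43 with vehicle and 12.53 and 12.53 with WIN 18,446 (0.15, 95% interval -0.04 to 0.34, adjusted p = 0.318), and the differences of its other 4 tested probe sets ran from -0.04 to 0.14. Nr2f2, or COUP-TFII, which marks interstitial and venous cells and is needed for Leydig cell maturation, read 13.60 and 13.61, then 13.58 and 13.49 (-0.07, 95% interval -0.23 to 0.09, adjusted p = 0.572). Its other 4 tested probe sets differed by -0.51 to 0.11, all uncalled. Nr2f1, or COUP-TFI, read 7.58 and 8.10 with vehicle and 7.76 and 7.67 with WIN 18,446 (-0.12, adjusted p = 0.81), with the treated arrays between the controls. Nr2f6, a COUP-like repressor, read 13.69 and 13.71, then 13.36 and 13.88 (-0.08, adjusted p = 0.827), and in its other probe set 9.88 and 10.01, then 8.88 and 10.13 (-0.44, adjusted p = 0.595). In both Nr2f6 probe sets treated array 1 was the lowest and treated array 2 the highest of the 4.

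**Figure D4:**
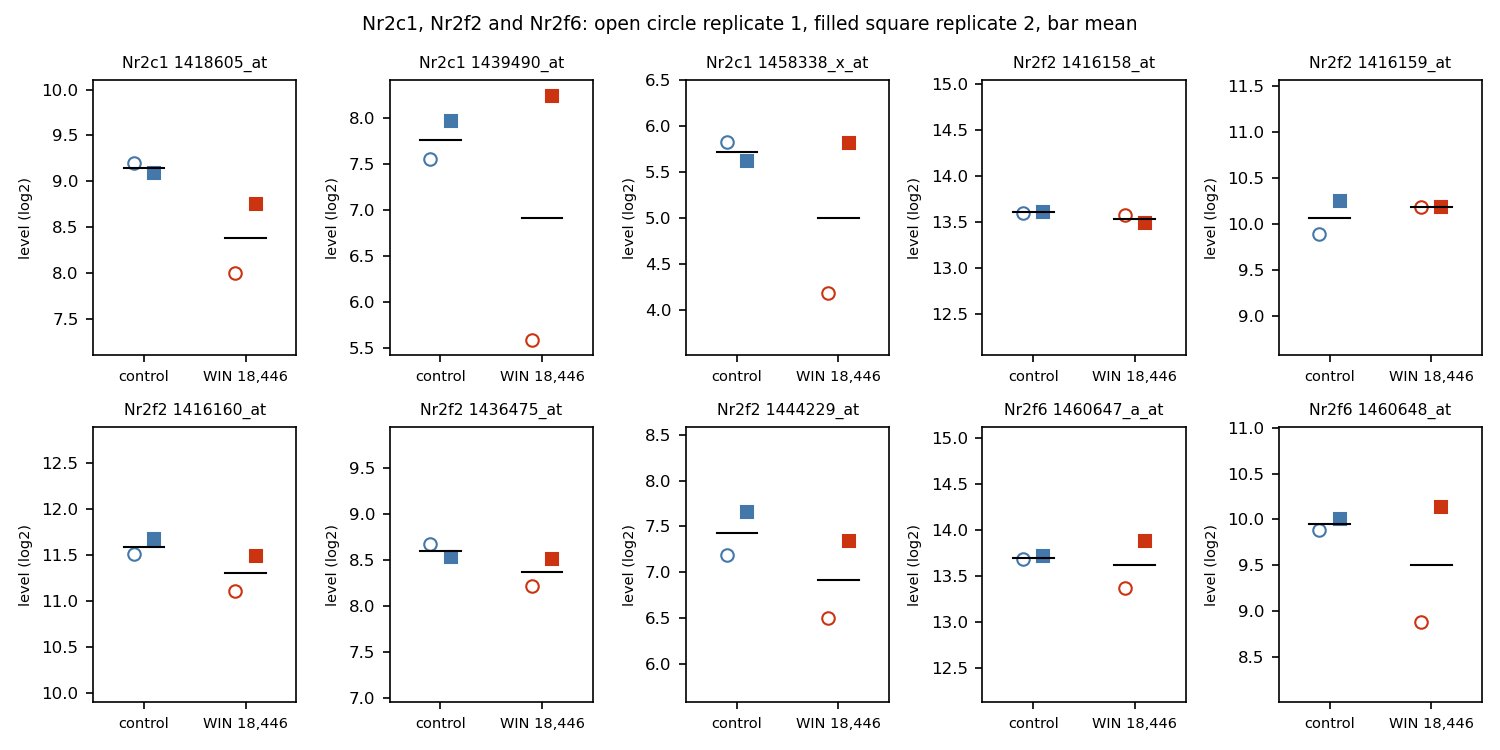
Log2 level on each array (vertical axis, 3 log2 units in every panel) of the tested probe sets of Nr2c1, Nr2f2 and Nr2f6, for control and WIN 18,446 (horizontal axis); open circles are replicate 1, filled squares replicate 2 and bars group means. Treated array 1 is the lowest in every Nr2c1 and Nr2f6 panel, and in both Nr2f6 panels treated array 2 is the highest.

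Treated array 1 read apart from the other 3 arrays on some of these receptors and on other sequences of the array. The treated arrays differed by at least 1 log2 unit in 4 of the 38 member probe sets, beside 3.20% of all tested, and the control arrays in 1, beside 1.27%. The 4 were Nr2c1 1439490_at and 1458338_x_at, Nr2f6 1460648_at and Thra 1443952_at. That array also read 6.55 for the 5′ end of 18S rRNA, where the other 3 read from 8.12 to 8.67, and 13.52 for B1 repeats, where they read from 12.73 to 12.93. The part of these values in the receptor readings was not tested. Without treated array 1, the Nr2c1 probe set of highest mean differed by -0.39 and that of Nr2f6 by 0.18. Without treated array 2 the 3 Nr2c1 probe sets differed by -1.14, -2.17 and -1.54, both of Nr2f6 by -0.34 and -1.07, and 2 of Thra by 1.37 and -0.54. In that fit limma called these 7 of the 38 (18.4%), beside 6.69% of all tested. Its treated group is treated array 1 alone, taken to vary as the 2 control arrays do, so the calls restate the readings of that array and are no further evidence on it. Treated array 1 was the lowest of the 4 in 15 of the 38 (39.5%), beside 33.7% of all tested.

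Nr6a1 was lower on both treated arrays and was not called. Nr6a1 read 8.09 and 8.04 with vehicle and 7.38 and 7.86 with WIN 18,446 (-0.45, 95% interval -1.03 to 0.13, adjusted p = 0.334), with a wider gap between the treated arrays than between the groups. Germ cell markers were read beside it: 2 of 8 tested fell (Sall4 and Tdrd9), 0 rose and 6 were not called. At a limma unadjusted p under 0.05 there were 3 of the 8. The list means were 10.89 and 10.87 on the control arrays and 10.74 and 10.73 on the treated arrays. Ddx4, the germ cell helicase, differed by 0.24 (adjusted p = 0.23) and Dazl, a germ cell RNA-binding protein, by 0.29 (adjusted p = 0.113). No germ cell marker was at the background, and their part in the Nr6a1 reading was not tested.

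Among the steroid receptors, Nr3c2, the mineralocorticoid receptor, read 8.60 and 7.72 with vehicle and 7.48 and 7.65 with WIN 18,446. Control array 1 stood above the other 3, and the difference was -0.59 (95% interval -1.42 to 0.24, adjusted p = 0.373). Without control array 1 it was -0.15. Nr3c1, the glucocorticoid receptor, whose 3 tested probe sets differed by -0.03, -0.02 and 0.09, read 11.47 and 11.26, then 11.34 and 11.32 in that of highest mean (95% interval -0.31 to 0.24, adjusted p = 0.9), with the treated arrays between the controls. Esr1, the estrogen receptor alpha of interstitial cells, read 10.30 and 10.67, then 10.48 and 10.78 (0.14, 95% interval -0.31 to 0.60, adjusted p = 0.696), with overlapping groups. Esr2, the beta receptor, read at most 2.11. Pgr, the progesterone receptor, read 4.67 and 4.55, then 4.20 and 4.80 in its brightest probe set, and was not tested.

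Genes that these receptors induce showed no call. Of 11 tested genes induced by glucocorticoids 0 were called by limma (4 at an unadjusted p under 0.05), with a median of -0.12, and 2 were called without treated array 2. The metallothionein Mt2 (-0.55, adjusted p = 0.137), the cell cycle inhibitor Cdkn1c (-0.57, adjusted p = 0.171) and the EGF receptor inhibitor Errfi1 (0.18, adjusted p = 0.166) had the smallest p. Fkbp5, a chaperone much used as a reporter of glucocorticoid action, differed by -0.12 (adjusted p = 0.457) and Tsc22d3 by 0.21 (adjusted p = 0.48). Of 7 tested genes induced by estrogen 0 were called (2 at an unadjusted p under 0.05; 1, Greb1, with the replicate block), with a median of -0.02 and Greb1, a cofactor of the estrogen receptor, at 0.48 (adjusted p = 0.0803), Cxcl12 at -0.19 (adjusted p = 0.147) and Ctsd at -0.14 (adjusted p = 0.335).

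The estrogen-related receptors, orphan regulators of mitochondrial genes, were not tested. Esrra read 3.16 and 3.84 with vehicle and 3.77 and 3.67 with WIN 18,446 in its brighter probe set. Esrrg read 4.59 and 3.79, then 3.14 and 3.93 in its brightest. In both genes the groups overlapped. Esrrb, which is known from pluripotent cells, was at the background. Nr2e1, a receptor of neural stem cells, reached 2.32 at most.

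The shared partners and cofactors of these receptors were also without a call, except that Ncoa2 was called with a mean of at least 7. Of 14 tested coactivators 0 were called (2 at an unadjusted p under 0.05), with differences from -0.38 to 0.09 and a median of -0.0011. Ncoa2 (-0.38, adjusted p = 0.0576) and Ncoa3 (-0.30, adjusted p = 0.149), which are acetyltransferase-recruiting coactivators of the p160 family, had the smallest p, and Ncoa6 followed (-0.16, adjusted p = 0.411). Of 8 tested corepressors 0 were called (1 at an unadjusted p under 0.05), with a median of 0.07; Hr, described above, Gps2 (0.29, adjusted p = 0.238) and Lcor (-0.23, adjusted p = 0.334) had the smallest p. The retinoid X receptors Rxra (0.22, adjusted p = 0.544) and Rxrb (0.20, adjusted p = 0.328) were not called, at an unadjusted p under 0.05 either, and Rxrg was at the background.

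**Figure D5:**
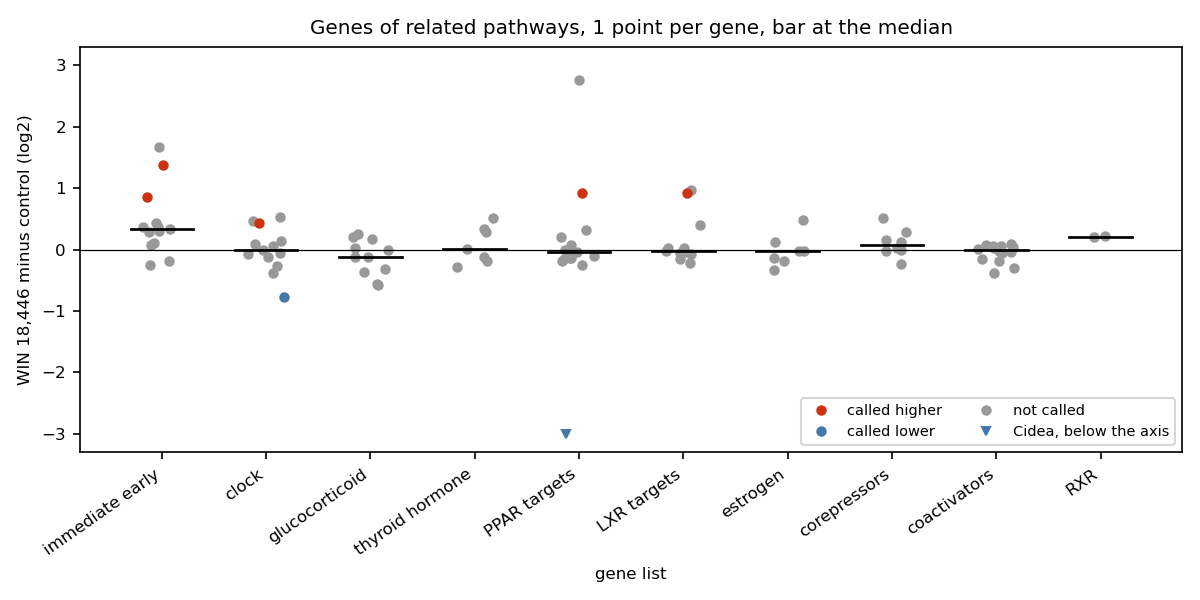
Log2 difference, WIN 18,446 minus control (vertical axis), of each tested gene of 10 lists (horizontal axis), with bars at the list medians and colours for genes called higher or lower. The immediate early list has the highest median at 0.33, and Cidea at -8.20 lies below the axis.

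Markers of the other cells of the testis are given for the interstitial receptors Nr2f2 and Esr1, whose differences were small. Of 4 tested Leydig cell markers 0 were called (2 at an unadjusted p under 0.05), with list means of 12.15 and 11.77 on the control arrays and 11.74 and 11.46 on the treated arrays. Of 4 tested peritubular markers Des fell and 3 were not called (3 of the 4 at an unadjusted p under 0.05), with means of 10.97 and 11.14, then 10.56 and 10.37. Of 5 tested endothelial markers Robo4 fell and 4 were not called (4 of the 5 at an unadjusted p under 0.05), with means of 8.76 and 8.89, then 8.09 and 7.99. One macrophage marker (Mrc1, 0.10, adjusted p = 0.915) and 1 erythroid marker (Hbb-b2, -1.42, adjusted p = 0.0618) were tested. The part of these cells in the receptor readings was not tested.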

How the data were processed

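The deposited log2 values, 1 column per array, were used as the authors left them. RMA and GCRMA are named in the submitters' processing notes, without saying which made the table. Their scale follows from their range, which reaches 16.2. The 64 control probe sets were left out, and the 20895 of 45037 others (46.4%) with a mean of at least 5 were tested with limma 3.58.1 in R 4.3.3 (lmFit, eBayes with a variance trend, two-sided, Benjamini-Hochberg over all tested), with 2 residual and 3.19 prior degrees of freedom. The fit was tested on simulated data. An exact permutation test of 2 arrays against 2 cannot go below 0.333, so none is given. Genes are represented by the tested probe set of highest mean, and probe sets are named by GEO's array annotation. All 35 receptors are named, with the called genes of each pathway list and up to 3 more by smallest p; others are named for their role, after their values were seen. The receptors and lists were chosen with earlier results of these data known. Samples were grouped by their labels. Alternatives were other level filters, renormalization, no variance trend, a replicate block and each array left out. The number of arrays limits the precision. Promoters come from RefSeq (GRCm38.p6).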

Additional observations from a re-analysis of the deposited data

How the results depend on the processing

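With 2 arrays per group, no call stood without both control arrays. A fit without 1 of them takes its spread within groups from the treated arrays alone. The number of probe sets called was 1083, and 3 with no level filter, 372 with no variance trend, 1242 with equal array medians, 1467 with the replicate block, 1263 with a mean of at least 7, 1215 with 2 of 4 arrays at 5 or above and 1321 with quantile normalization again. With 1 array left out it was 0 without either control array, 664 without treated array 1 and 1398 without treated array 2. Of the member probe sets 2 were called, against 0 with no level filter (2 at an unadjusted p under 0.05), 0 with no variance trend (3), 1 with equal array medians (2.63% beside 5.94% of all), 1 with the replicate block (2.63% beside 7.02%) and 0 to 7 with 1 array left out (18.4% beside 6.69% at the highest). Of the lists with 0 calls, the coactivators had 1 with a mean of at least 7, the estrogen list 1 with the replicate block and the glucocorticoid list 2 without treated array 2. Both calls stood with a mean of at least 7, with 2 of 4 arrays at 5 or above and with quantile normalization again.

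For Nr4a1 the difference of 0.71 kept its size with no level filter (0.71, adjusted p = 0.0966), no variance trend (0.71, adjusted p = 0.0571) and the replicate block (0.71, adjusted p = 0.0521), but was not called, nor with equal array medians (0.67), and it ran from 0.68 to 0.75 with 1 array left out. For Thra, -0.50 was not called with no level filter (-0.50, adjusted p = 0.114) or no variance trend (-0.50, adjusted p = 0.0965), was called with the replicate block (adjusted p = 0.0314), and ran from -0.54 to -0.46 with 1 array left out; its probe set 1426997_at gave -0.37 and 1443952_at 0.74. Deviations of same-numbered arrays correlated at 0.01. With so few arrays per group this value cannot tell whether the replicate numbers pair the samples, and the labels do not say.

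Of 205 alternative values for the 17 expressed genes, 175 kept direction and side of the threshold, 14 lost a call, 2 gained one and 14 reversed, and the cause was not tested. With 1 array left out, uncalled genes that changed sign ran from -0.24 to 0.35 for Nr1d1, -0.078 to 0.033 for Nr1d2, -0.38 to 0.13 for Nr2f1, -0.34 to 0.18 for Nr2f6, -0.14 to 0.073 for Nr3c1 and -0.039 to 0.33 for Esr1. Other probe sets gave the opposite sign for Nr2c2 (-0.038), Nr2f2 (0.11), Nr3c1 (0.091), Esr1 (-0.14) and the called gene Thra (0.74). Of 66 values for Dbp, Tef, Lpl, Cidea, Atf3 and Egr2 under the same settings, a choice made after seeing the data, 26 lost the call and 0 reversed.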
